A study of Mus musculus with 9 samples.

Results

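The 9 genes described here encode the G protein subunits of odorant signalling, the chaperone of the alpha subunit and the adenylyl cyclase, together with the G protein subunits used earlier in the lineage. They were taken by name (Gnal, Gnas, Gnb1, Gng13, Gng8, Gnao1, Gnai2, Ric8b and Adcy3) from 21909 gene symbols, and each had 1 row with status OK in every library. Messenger RNA was sequenced from 3 sorted cell populations of 4-week-old mice, all from the main olfactory epithelium. Horizontal basal cells (HBC), the reserve stem cells, were taken as cells positive for anti-CD54-PE, an antibody to the product of Icam1. The population titled GBC (globose basal cells, the neuronal progenitors) held cells positive for Neurog1-EGFP, a fluorescent reporter of a proneural factor. Mature olfactory sensory neurons (mOSN) were cells positive for OMP-ires-EGFP, a reporter of Omp expression. There was 1 library per population, so the comparisons have no replicate check and no p-value. The sources used here do not give the number of mice pooled, their strain or their sex. ScriptSeq was used for HBC and an Illumina mRNA library kit for GBC and mOSN, so in every comparison with HBC the kit and the cell type cannot be told apart.

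In a ciliated sensory neuron, an odorant receptor activates a heterotrimeric G protein of the stimulatory class. Its alpha subunit, Golf, is encoded by Gnal and works with a beta and a gamma subunit. Golf stimulates adenylyl cyclase 3, and the cyclic AMP that results opens a cyclic nucleotide-gated channel in the cilium. Most other cells use Gs, encoded by Gnas, in the place of Golf. Ric8b is a chaperone and exchange factor for the alpha subunits of this class. Gnao1 and Gnai2 encode alpha subunits of the Go and Gi class, which are known from vomeronasal neurons and from many other cells.

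The expected cell markers were present with exceptions. FPKM (fragments per kilobase of transcript, scaled to the mapped fragments of the library) is a level per length, so it can be compared between genes. All 8 markers of mature neurons were highest in mOSN, all 7 of HBC were highest in HBC, and Neurog1 had 163 FPKM in GBC and at most 0.0538 elsewhere. Within the precursor list Kit was highest in HBC at 5.30 FPKM. The GBC library also held immature neuron markers, among them Gap43 (277 FPKM) and Stmn2 (448), and Omp at 427. Of 7 immature neuron markers, GBC exceeded mOSN by 2-fold or more for 5. The exceptions were Ncam1, with 143 FPKM in GBC and 125 in mOSN, and Dcx, with 61.7 in GBC and 70.9 in mOSN. The 10 macrophage and monocyte markers summed to 4437 FPKM in HBC, 6.31 (GBC) and 4.77 (mOSN), and only Aif1 in mOSN was listed at 0. In HBC 6 sustentacular cell markers summed to 1781 FPKM and the 7 HBC markers to 1336. Of the sustentacular markers, Cyp2g1 and Sult1c1 were highest in mOSN. The part of these other cell types in the HBC levels was not tested. The fragments implied by the deposited intervals numbered 18123310, 18086991 and 16515790 for HBC, GBC and mOSN.

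The gamma subunits Gng13 and Gng8 had opposite profiles after the precursor stage, and the sequence before each gene is shown for that reason. It is the RefSeq sequence of build GRCm38.p6, plus strand, chr17:25716922-25717171 for Gng13 and chr7:16891536-16891736 for Gng8, ending at the base before the gene. The capitals mark CCCNNGGG, the core letters bound by Ebf factors, which are transcription factors of the olfactory lineage.
Gng13: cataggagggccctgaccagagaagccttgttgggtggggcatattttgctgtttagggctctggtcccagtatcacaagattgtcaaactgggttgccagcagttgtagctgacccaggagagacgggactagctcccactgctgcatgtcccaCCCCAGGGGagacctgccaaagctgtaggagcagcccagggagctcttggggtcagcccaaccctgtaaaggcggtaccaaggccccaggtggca
Gng8: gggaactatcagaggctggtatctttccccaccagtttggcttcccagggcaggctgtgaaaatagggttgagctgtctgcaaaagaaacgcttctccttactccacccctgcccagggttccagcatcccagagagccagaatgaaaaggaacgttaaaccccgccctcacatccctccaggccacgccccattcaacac
In Gng13 the letters occurred as 2 overlapping matches, 95 to 87 bases before the gene. The printed stretch before Gng8 held none. The motif reads the same on both strands and occurred in 11.9% of 32536 distinct promoter windows of 250 bases. The windows read here numbered 12, for 7 of the 9 genes, and no window of Gnal or Gnai2 was among them. Of these 7 genes, Gng13 and Gnas had a window with a match. The other Gng13 window, chr17:25717278-25717527, had no match, and neither did the other Gnas windows. The 11.9% is counted per window and the genes per gene, so they are unlike measures. TAATTA, a homeodomain core that also reads the same on both strands, was in none of the 12 windows and in 4.84% of all. A match of letters is a description, and no match says only that these letters are not in that window.

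**Figure D1:**
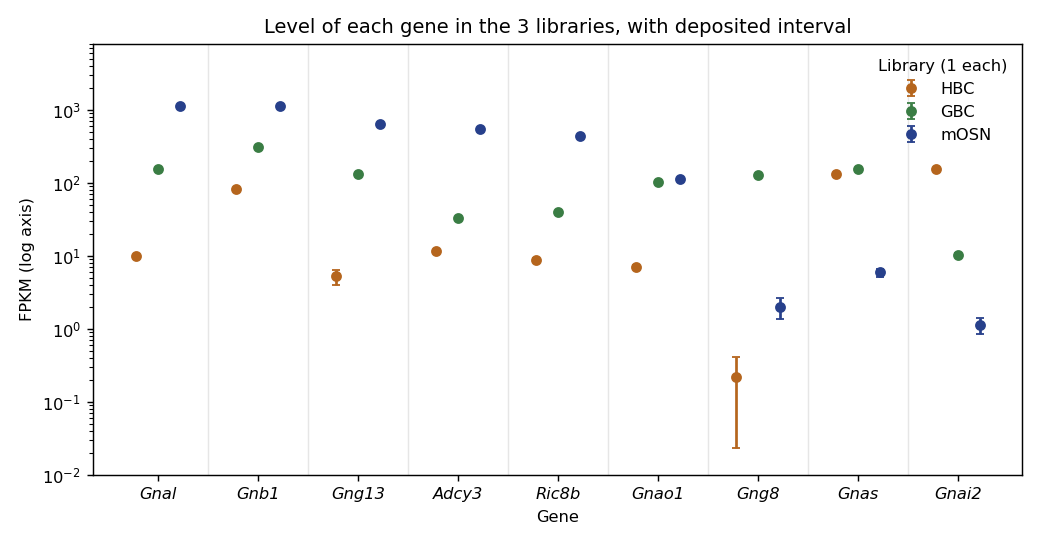
Level of each gene in FPKM (log axis) in the HBC, GBC and mOSN libraries; points are single libraries and bars the deposited interval, which covers counting error only. The first 5 genes are highest in mOSN, where Gnal stands at 1141 FPKM, whereas Gng8 peaks in GBC at 129 and Gnai2 in HBC at 157.

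Gnal, the Golf alpha subunit (chromosome 18, 67247990 to 67386445, mm9), had 9.87 FPKM in HBC (deposited interval 9.46 to 10.3), 157 in GBC (155 to 159) and 1141 in mOSN (1135 to 1147). Its level was 15.9-fold higher in GBC than in HBC (95% counting interval of the fold 15.2 to 16.6). It was a further 7.27-fold higher in mOSN than in GBC (7.16 to 7.38). In mOSN it ranked 9 of 21909 symbols by FPKM, after rank 3577 in HBC and 118 in GBC. These folds are plain ratios of FPKM, and the intervals hold counting error only. The Gnal locus overlaps Mppe1 and Chmp1b, which had at most 7.99 and 15.1 FPKM in any library.

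Gnas, the Gs alpha subunit (chromosome 2, 174109821 to 174172243), ran the other way at the last step. It had 132 FPKM in HBC (129 to 135), 155 in GBC (152 to 158) and 5.92 in mOSN (5.19 to 6.65). HBC and GBC thus lay close together, at a log2 ratio of 0.23 that turned to -0.39 after median-of-ratios scaling, and mOSN was 26.2-fold lower than GBC (23.2 to 29.6), rank 19 from the bottom of 8678 genes. It ranked 140 in HBC by level and 7190 in mOSN. The Gnas locus is imprinted and has several start sites, and the table gives 1 value for all of them. The antisense gene Nespas overlaps it and had at most 0.181 FPKM in any library.

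The ratio of Golf to Gs alpha messenger therefore passed from one extreme to the other. Gnal was 6.96% of the sum of Gnal and Gnas in HBC (6.66 to 7.27), 50.3% in GBC (49.7 to 50.9) and 99.5% in mOSN (99.4 to 99.5). The near-equal level in GBC depends on how FPKM was scaled. With 1 conversion from fragments to FPKM per gene in all libraries, GBC had 119 FPKM of Gnal and 172 of Gnas. In a bulk library, an equal sum cannot tell cells with both messengers from a mixture of cells with one or the other.

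Gnao1, the Go alpha subunit (chromosome 8, 96334738 to 96493288), had 6.98 FPKM in HBC (6.53 to 7.44), 104 in GBC (102 to 106) and 113 in mOSN (110.3 to 115). It was 14.9-fold higher in GBC than in HBC (13.9 to 15.9), and GBC and mOSN differed by only 1.09-fold (1.06 to 1.12). That last difference was 0.12 on the log2 scale of FPKM + 1. It turned to -0.25 with the libraries rescaled to a common sum, -0.06 after median-of-ratios scaling and -0.09 with 1 conversion per gene, so no direction is given. Among the 9 genes, Gnao1 was the one under 2-fold between mOSN and GBC.

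Gnai2, a Gi alpha subunit (chromosome 9, 107516469 to 107537673), had 157 FPKM in HBC (154 to 159.7), 10.2 in GBC (9.59 to 10.8) and 1.12 in mOSN (0.852 to 1.39). It was 15.4-fold lower in GBC than in HBC (14.5 to 16.3) and 9.08-fold lower again in mOSN than in GBC (7.12 to 11.6). Gnai2 is broadly expressed, leukocytes included. In the same libraries each of the 10 macrophage markers stood 2-fold or more below HBC in GBC, with Cd74 at 1228 FPKM in HBC and 1.03 in GBC. Their part in the HBC level of Gnai2 was not tested. Fewer cells of a type and less RNA per cell cannot be told apart in these bulk samples.

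Gnb1, the beta subunit (chromosome 4, 154865470 to 154933378), was already the main beta messenger in HBC. It had 83.2 FPKM in HBC (81.7 to 84.7), 312 in GBC (309 to 315) and 1129 in mOSN (1121 to 1138). Its folds were 3.75 from HBC to GBC (3.67 to 3.82) and 3.62 from GBC to mOSN (3.58 to 3.67). In mOSN it ranked 10 of all symbols, next to Gnal, with 0.990 FPKM of Gnb1 per FPKM of Gnal (0.981 to 0.999). The same ratio was 8.43 in HBC and 1.99 in GBC. With 1 conversion per gene, GBC had 368 FPKM of Gnb1 beside 119 of Gnal and mOSN had 909 beside 1166, so the ratio itself depends on the conversion by more than its counting interval. Gnb1 has pseudogenes in the RefSeq gene table, and the sources used here do not say how reads shared with them were counted, so its values are uncertain to that degree.

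Gng13, the gamma subunit of mature olfactory cilia (chromosome 17, 25854117 to 25856047), had 5.25 FPKM in HBC (4.01 to 6.49), 133 in GBC (128 to 138) and 638 in mOSN (623 to 652). The HBC value rested on 72 implied fragments, and the overlapping gene Chtf18 had at most 6.79 FPKM. Gng13 was 25.4-fold higher in GBC than in HBC (20.1 to 32.1) and 4.78-fold higher in mOSN than in GBC (4.58 to 5.00). Among 9779 genes reaching 5 FPKM in mOSN or HBC, Gnal ranked 3 and Gng13 ranked 6 by the log2 ratio of mOSN over HBC.

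Gng8, a gamma subunit known from immature olfactory and from vomeronasal neurons (chromosome 7, 17477135 to 17480784), was high in 1 library only. It had 0.219 FPKM in HBC (0.0231 to 0.414), 129 in GBC (125 to 133) and 2.001 in mOSN (1.38 to 2.62). These rested on 5, 4110 and 42 implied fragments. GBC was 589-fold above HBC, with a wide counting interval of 245 to 1416, and 64.4-fold above mOSN (47.5 to 87.3). By log2 ratio Gng8 was rank 6 from the top in GBC over HBC, of 9101 genes, and rank 6 from the bottom in mOSN over GBC, of 8678 genes. Vomeronasal markers were low in GBC, with Trpc2 at 5.50 FPKM and 5 markers summing to 6.28.

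The gamma pair thus repeated the order of the alpha pair between GBC and mOSN. Gng13 was 50.9% of the sum of Gng13 and Gng8 in GBC (49.6 to 52.1) and 99.7% in mOSN (99.6 to 99.8). With 1 conversion per gene, GBC had 169 FPKM of Gng13 and 134 of Gng8. In HBC the share was 96.0% (90.7 to 98.3), at a Gng13 level of only 5.25 FPKM.

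Adcy3, the cyclase (chromosome 12, 4133397 to 4213524), had 11.5 FPKM in HBC (10.9 to 12.1), 32.8 in GBC (32.0 to 33.7) and 547 in mOSN (543 to 551). Most of its difference lay at the last step. It was 16.7-fold higher in mOSN than in GBC (16.2 to 17.1), rank 8 of 8678 genes by log2 ratio, and 2.85-fold higher in GBC than in HBC (2.69 to 3.01). By level it ranked 3021 in HBC, 1081 in GBC and 26 in mOSN. On the log2 scale of FPKM + 1 that smaller step came to 1.43, to 0.84 (under 2-fold) after median-of-ratios scaling, and to 2.20 with 1 conversion per gene.

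Ric8b, the chaperone (chromosome 10, 84380361 to 84479192), had 8.87 FPKM in HBC (8.36 to 9.38), 40.0 in GBC (38.6 to 41.4) and 437 in mOSN (432 to 442). Like Adcy3, it had its larger step at the end, 10.9-fold from GBC to mOSN (10.5 to 11.3) against 4.51-fold from HBC to GBC (4.23 to 4.82). Ric8b was rank 41 of 8678 genes by the log2 ratio of mOSN over GBC. For Gng13 the first step was the larger. For Gnal it was the larger as deposited, but with 1 conversion per gene the log2 ratios were 3.13 for the first step and 3.28 for the last, so the order of its steps depends on the conversion. The comparisons share the GBC library, so the steps are given side by side without a relation between them. The level of Gnal per FPKM of Adcy3 was 0.855 in HBC, against 4.78 and 2.09 in GBC and mOSN. The HBC order turned with 1 conversion per gene, at 12.7 FPKM of Gnal and 8.07 of Adcy3. Per FPKM of Ric8b there were 1.11, 3.92 and 2.61.

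The counts over the 9 genes were set against all genes reaching 5 FPKM in either library. A gene counted as higher at a log2 ratio of FPKM + 1 of at least 1, a 2-fold difference, with at least 5 FPKM in the higher library. Between mOSN and GBC, 5 of 9 were higher in mOSN (Gnal, Gnb1, Gng13, Ric8b and Adcy3), where 25.2% of 8678 genes were. A further 3 were lower (Gnas, Gng8 and Gnai2), against 9.23% of all. At 4-fold the same comparison gave 4 higher and 3 lower, against 7.12% and 3.16%. The median log2 ratio was 1.85 over the 9 genes and 0.29 over all.

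Between GBC and HBC, 7 of 9 were higher in GBC, against 36.8% of 9101 genes. Gnai2 was the 1 gene lower in GBC, against 24.1% of all, and Gnas was within 2-fold. At 4-fold, 5 were higher (15.5% of all) and 1 lower (16.5%). The median was 2.06 over the 9 genes and 0.51 over all.

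Between mOSN and HBC, 8 of the 9 reached 5 FPKM in a library and Gng8 did not. Of these, 6 were higher in mOSN against 44.4% of 9779 genes. The other 2, Gnas and Gnai2, were lower against 21.4%. All of these passed 4-fold as well, where the background was 24% and 15.8%. The medians were 4.64 and 0.79. Gng13 was 121-fold higher in mOSN than in HBC (95% counting interval 96.3 to 153) and Gnal 116-fold (111 to 120.4). Ric8b was 49.3-fold, Adcy3 47.4-fold, Gnao1 16.2-fold and Gnb1 13.6-fold higher. In the other direction Gnai2 was 139.6-fold lower in mOSN (110.1 to 177) and Gnas 22.3-fold lower (19.7 to 25.2). Median-of-ratios scaling moved all 8 of these by over 1.5-fold with their direction kept, to log2 ratios of 5.93 for Gng13, 5.94 for Gnal, 4.71 for Ric8b, 4.67 for Adcy3, 3.08 for Gnao1, 2.94 for Gnb1, -6.85 for Gnai2 and -5.02 for Gnas. With 1 conversion per gene the log2 ratios of Gng13, Gnal, Adcy3 and Ric8b were 7.16, 6.41, 6.12 and 5.21, so the order of these genes depends on the conversion. The deposited intervals were apart in 27 of 27 comparisons of the 9 genes, which speaks of counting error only. The share of all genes with intervals apart was not counted, so this cannot be read as a trait of these genes. The background is no test of the populations, and the genes were not drawn at random.

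The scale of the libraries moved the background more than the counts. As deposited, 73.2% of the genes at least 2-fold apart between mOSN and GBC were higher in mOSN, and 50.3% were with the libraries rescaled to a common sum. That rescaling shifted the median of all genes from 0.29 to -0.12. For GBC over HBC the share of 60.4% became 39.4% after median-of-ratios scaling (median -0.20 in place of 0.51). For mOSN over HBC 67.4% became 44.6% (median -0.15 in place of 0.79), or 54.3% with a common sum (median 0.24). The counts of 5 and 3 genes between mOSN and GBC were identical under both rescalings. Median-of-ratios scaling left 6 of the 7 genes higher in GBC than in HBC, without Adcy3. It also moved the GBC over HBC ratios of Gnal (3.28), Gnb1 (1.27) and Gnai2 (-4.42) by over 1.5-fold on the log2 scale. With 1 conversion per gene the values that moved by over 1.5-fold were the GBC over HBC ratios of Gnal (3.13), Gng13 (5.14), Gnai2 (-2.85) and Adcy3 (2.20) and the mOSN over HBC ratio of Adcy3 (6.12), all on the log2 scale and with their direction kept.

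**Figure D2:**
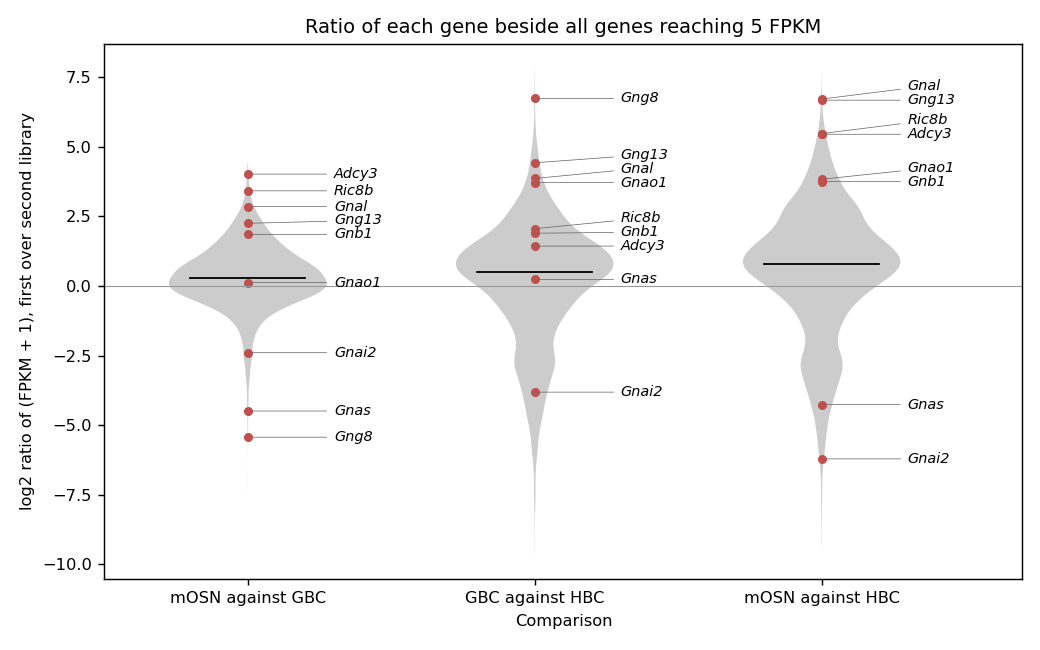
log2 ratio of FPKM + 1 for each comparison (first over second library); grey shapes show all genes reaching 5 FPKM in either library with their median as a black line, and red points the named genes. Adcy3 (4.02) and Gng8 (-5.44) lie at the upper and lower end in mOSN against GBC, while Gnao1 (0.12) lies near the median of 0.29.

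Within each family, the share of summed FPKM shows how far 1 gene held the family. Of 16 alpha subunit genes, HBC was led by Gnai2 (38.5%) and Gnas (32.5%), with Gnal at 2.43%. GBC was split between Gnal (33.7%), Gnas (33.4%) and Gnao1 (22.3%). mOSN was held by Gnal (87.2%) with Gnao1 at 8.62% and Gnas at 0.453%. Of the other alpha subunits, Gna15, known from blood cells, had 6.95 FPKM in HBC and at most 0.0278 elsewhere. Gnai1 had 6.14, 0.307 and 0.390 FPKM in HBC, GBC and mOSN. Gnaq, which couples receptors to phospholipase C, had 12.9, 2.95 and 4.79. Over the alpha subunits reaching 5 FPKM, 1 of 8 was higher and 2 lower in mOSN than in GBC (25.2% and 9.23% of all genes), with a median log2 ratio of -0.05. In GBC, 2 of 11 were higher and 6 lower than in HBC, against 36.8% and 24.1% of all genes. In mOSN, 2 of 11 were higher and 7 lower than in HBC, against 44.4% and 21.4%. In both cases the 2 higher genes were Gnal and Gnao1.

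Of 5 beta subunit genes, Gnb1 made up 55.6%, 92.5% and 98.4% in HBC, GBC and mOSN. Gnb2, a widely expressed beta subunit, had 61.9, 19.8 and 1.18 FPKM in HBC, GBC and mOSN. The HBC share of Gnb1 was 69.8% with 1 conversion per gene. Gnb5, the partner of a class of Rgs proteins, had 3.69, 4.76 and 16.5 FPKM. Of the beta genes reaching 5 FPKM, 2 of 3 were higher and 1 lower in mOSN than in GBC (25.2% and 9.23% of all genes), with a median log2 ratio of 1.61.

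Of 12 gamma subunit genes, Gng13 made up 8.49%, 43.9% and 95.9% in HBC, GBC and mOSN, and Gng8 made up 42.4% in GBC. Gngt2, known from cone photoreceptors, led HBC at 18.1 FPKM and had at most 0.0630 in the other libraries. Its HBC level stood beside the macrophage markers given above, whose part was not tested. Gng2 had 8.04, 11.7 and 0.259 FPKM in HBC, GBC and mOSN, and Gng12 had 8.64, 2.88 and 0.610. Among gamma genes reaching 5 FPKM, 1 of 6 was higher in mOSN than in GBC (Gng13) and 3 were lower (25.2% and 9.23% of all genes), with a median log2 ratio of -0.59. The summed level was 61.9, 304 and 665 FPKM in HBC, GBC and mOSN for gamma subunits, against 150, 337 and 1148 for beta and 406, 465 and 1308 for alpha subunits.

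Of 10 adenylyl cyclase genes, Adcy3 made up 24.8%, 93.0% and 99.4% in HBC, GBC and mOSN. Adcy7, a cyclase of blood cells among others, led HBC at 20.1 FPKM and had 0.739 in GBC and 1.33 in mOSN. Adcy6 had 6.23 FPKM in HBC and at most 0.243 in the other libraries. In mOSN no cyclase but Adcy3 and Adcy7 reached 1 FPKM. Their HBC levels stood beside the macrophage markers given above, whose part was not tested.

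Ric8b made up 92.3% of the summed FPKM of 5 chaperone and assembly genes in mOSN, 43.99% in GBC and 30.04% in HBC. Its relative Ric8a (listed as Ric8), which serves the other alpha classes, had 5.25, 20.7 and 10.8 FPKM in HBC, GBC and mOSN. Pdcl, an assembly factor of beta and gamma subunits, had 5.40, 16.9 and 17.9. Pdcl3 led the list in HBC at 10.01 FPKM and had 13.4 in GBC and 7.54 in mOSN. Of 4 such genes reaching 5 FPKM, Ric8b was the 1 gene at least 2-fold different between mOSN and GBC (higher in mOSN, as were 25.2% of all genes), and the median log2 ratio was -0.34.

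**Figure D3:**
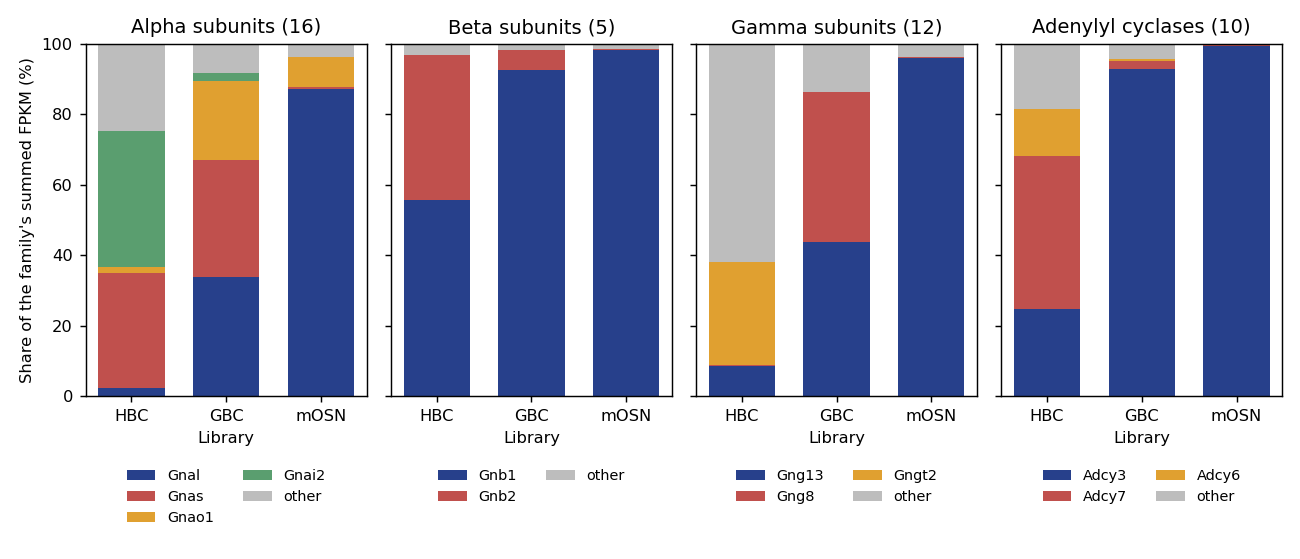
Share of the family's summed FPKM (%) in each library for alpha, beta and gamma subunits and adenylyl cyclases; the number of genes in a family is in brackets and grey is the rest of the family. The blue segments (Gnal, Gnb1, Gng13 and Adcy3) reach 87.2%, 98.4%, 95.9% and 99.4% in mOSN. In GBC, Gnal (33.7%), Gnas (33.4%) and Gnao1 (22.3%) lead the alpha family, and Gng13 (43.9%) and Gng8 (42.4%) the gamma family.

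The genes that act on either side of these proteins were read from lists. Of 8 cyclic AMP effectors and phosphodiesterases of odorant transduction, 7 reached 5 FPKM in mOSN or GBC and 7 were at least 2-fold higher in mOSN, against 25.2% of all genes. Against HBC, 6 of 7 were higher in GBC (36.8% of all) and 7 of 8 in mOSN (44.4% of all), where Pde2a was lower. The list medians were 3.41 for mOSN over GBC, 1.98 for GBC over HBC and 5.34 for mOSN over HBC on the log2 scale, beside 0.29, 0.51 and 0.79 over all genes. The channel subunit Cnga2 had 6.44, 95.5 and 570 FPKM in HBC, GBC and mOSN. Cnga4 had 4.16, 19.4 and 264, and the chloride channel Ano2 had 2.08, 13.2 and 137. The last of the 8, Pde2a, a phosphodiesterase known from a separate class of olfactory neurons, had 5.92, 2.90 and 0.834 FPKM.

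Among 6 protein kinase A subunits, 2 of 5 reaching 5 FPKM were higher in mOSN than in GBC and none was lower (25.2% and 9.23% of all genes), with a median log2 ratio of 0.33. The regulatory subunit Prkar1a had the highest level in each library (44.6, 153 and 112 FPKM in HBC, GBC and mOSN). The catalytic subunit Prkaca had 9.60, 37.3 and 47.1, and Prkacb had 21.5, 42.8 and 54.2.

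The list of regulators of G protein signalling was mixed. Of 25 measured Rgs and Gpsm genes, 9 reached 5 FPKM in mOSN or GBC, with 2 higher and 3 lower in mOSN (25.2% and 9.23% of all genes) and a median log2 ratio of 0.13. Rgs6, a partner of Gnb5, led in mOSN at 22.9 FPKM and had 4.55 in GBC, while Rgs11 led in GBC at 46.1 and had 17.4 in mOSN. Rgs1 (68.9 FPKM) and Rgs10 (52.7), both known from leukocytes, were high in HBC and at most 0.171 elsewhere. Of 10 receptor kinases and arrestins, none was higher and 1 of 2 lower in mOSN than in GBC, against 25.2% and 9.23% of all genes. Between GBC and HBC, 0 of 5 were higher and 3 lower in GBC, against 36.8% and 24.1%. Arrb2 led the list in GBC at 44.8 FPKM and in mOSN at 22.8. The receptor kinases Grk2 (listed as Adrbk1) and Grk3 (listed as Adrbk2) were listed at 48.5 and 17.3 FPKM in HBC but 0.617 and 0.169 in mOSN. Grk3 is known as a receptor kinase of olfactory cilia, and its low listed value in mOSN was not checked against reads. Arrb1 had 14.1, 2.19 and 0.589 FPKM in HBC, GBC and mOSN.

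The low levels of the mature genes in the earlier libraries were set beside those of 8 mature neuron markers. In GBC the markers stood at 5.35% (Umodl1) to 28.7% (Omp) of their mOSN level, with a median of 10.2%. Adcy3 stood at 6.002%, Ric8b at 9.16%, Gnal at 13.8%, Gng13 at 20.9% and Gnb1 at 27.6%, all inside that range, and Gnao1 was above it at 92.1%. In HBC the markers stood at 0.429% (S100a5) to 4.82% (Omp). Gng13 (0.824%), Gnal (0.865%), Ric8b (2.03%) and Adcy3 (2.11%) were inside that range, and Gnao1 (6.19%) and Gnb1 (7.37%) above it. The part that mature neurons in the GBC and HBC libraries had in these levels was not tested.

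**Figure D4:**
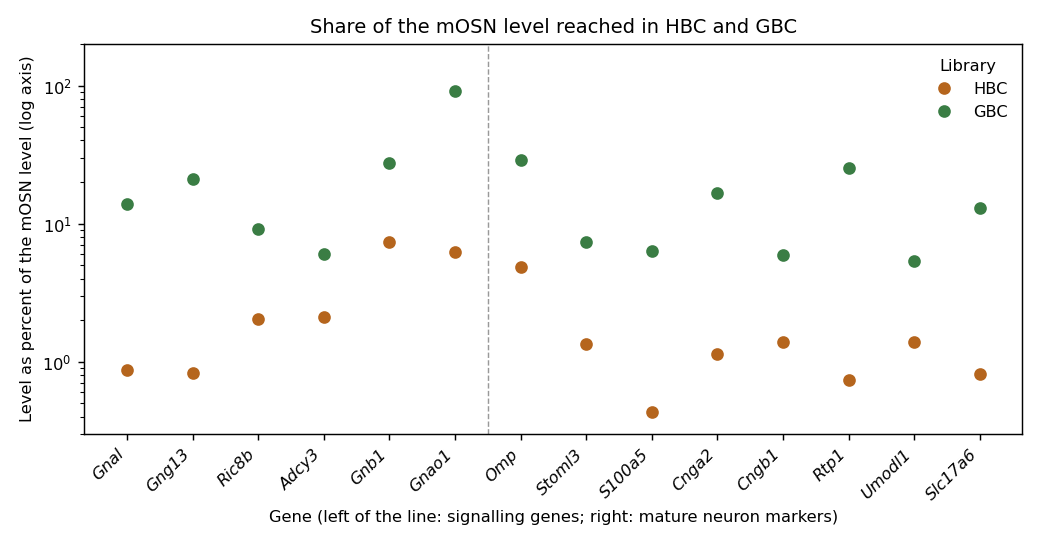
Level in HBC and GBC as a percent of the mOSN level (log axis) for 6 signalling genes, left of the dashed line, and 8 mature neuron markers, right of it; each point is 1 library. Adcy3 (6.002% in GBC) and Gnal (0.865% in HBC) lie within the spread of the markers, while Gnao1 (92.1% in GBC) lies above it.

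The genes with the most similar profile were found by the Euclidean distance between log2(FPKM + 1) values centred over the 3 libraries. The search covered 3696 symbols reaching 20 FPKM in a library, with olfactory and vomeronasal receptor symbols and predicted genes (Gm, Rik, LOC) left out. Nearest to Adcy3 were Ephx4 (distance 0.05), the channel subunit Cngb1 (0.11) and Olfm1 (0.37). Nearest to Gnal were Cnga2 (0.32), the neuropeptide gene Cartpt (0.38) and Ctxn3 (0.43). Nearest to Gng13 were Nsg1 (0.09), the receptor transporter Rtp1 (0.23) and the adhesion molecule Cntn4 (0.43). Among the symbols searched, Gng8 had none within 0.5. Its nearest were the helix-loop-helix factor Nhlh1 (0.69), the tubulin gene Tubb2b (0.95) and the microRNA gene Mir1905 (1.02). Among the 9 genes themselves, Gnal and Gng13 (0.48) and Ric8b and Adcy3 (0.50) were the closest pairs. With only 3 libraries such closeness is easily reached, and it says nothing of a shared function.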

How the data were processed

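Poly-A RNA of 3 sorted populations, 1 library each, was used, and the 6 samples of 5-hydroxymethylcytosine and 5-methylcytosine were not analysed here. Per the file headers, the authors deposited FPKM per gene together with its interval and a quality status. Bowtie, TopHat, Cufflinks and mm9 appear in the submitters' processing notes. Options, annotation and strand handling were not given in the sources used here.

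Rows of 1 symbol were added up, and starts were raised by 1. The fragments behind a value were implied by the interval as (2 times FPKM divided by the upper half-width) squared. Fold intervals (95%) used these fragments and cover counting error only, since PCR reads lacking molecular identifiers are not independent molecules. The log2 ratios used a pseudocount of 1 FPKM, which understates low genes, and a 5 FPKM floor. With 1 library per group no test was run. Calculations used Python 3.11.15, numpy 2.4.6 and pandas 2.3.3. The call rule was also run on simulated counts with large planted changes and counting error only. That run cannot speak of differences between libraries, kits or cells.

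The genes and lists were chosen with earlier results of these data known. Named were the 9 genes, per family up to 3 others with the largest log2 ratio at 5 FPKM and the highest gene per library, markers, and the 3 nearest profiles of Adcy3, Gnal, Gng13 and Gng8. Of 26 Rgs and Gpsm symbols 25 matched. Older symbols matched 3 list genes. Erythroid, tuft and sustentacular lists were also read, with 37.6, 1.45 and 39.5 FPKM summed in GBC, 12.6, 5.26 and 145 in mOSN and 54.3, 7.00 and 1781 in HBC.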

Additional observations from a re-analysis of the deposited data

How the results depend on the processing

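The alternatives were pseudocounts of 0.1 and 5 FPKM, no floor or 20 FPKM, a common sum, median-of-ratios scaling, 1 conversion factor per gene, a 4-fold threshold, intervals apart, the highest row per symbol, and leaving out FAIL and LOWDATA rows. In all of them the counts of higher and lower genes stayed within 1.5 times those reported. The highest row and the removal of FAIL and LOWDATA rows could change no count, since each gene had 1 row of status OK. Requiring intervals apart could change none either, since they were apart in 27 of 27 comparisons. Over the 27 log2 ratios, 13 moved by over 1.5-fold with median-of-ratios scaling, 9 with a pseudocount of 5, 5 with 1 conversion per gene, 4 with a pseudocount of 0.1 and 0 with a common sum. Signs turned only for Gnao1 in mOSN over GBC (0.12 to -0.25 with a common sum, -0.0635 with median-of-ratios scaling and -0.0925 with 1 conversion) and for Gnas in GBC over HBC (0.23 to -0.39 with median-of-ratios scaling).

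With 1 conversion per gene, the Gnal share of the alpha family was 3.71%, 25.5% and 88.2% in HBC, GBC and mOSN. The Gng13 share of the gamma family was 4.96%, 49.4% and 96.7%, and the Adcy3 share of cyclases in HBC was 21.5%. The cause was not tested. No paired analysis was possible because each population was 1 library without a replicate number. Depth limits Gng8 in HBC (5 fragments), Gng8 in mOSN (42), Gnai2 in mOSN (69) and Gng13 in HBC (72).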
